A study of Rattus norvegicus with 16 samples.

Results

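The 6 mature microRNAs (miRNAs) described here are rno-miR-7a, rno-miR-7b, rno-miR-9, rno-miR-9*, rno-miR-124 and rno-miR-128, chosen by name among the 350 rat miRNAs on an Agilent 1-colour array because they are known as miRNAs of the nervous system. They were followed through kidney and blood plasma of rats given an iodinated contrast medium, a model of contrast-induced acute kidney injury (CI-AKI), and of control rats given saline. The CI-AKI kidney, control kidney, CI-AKI plasma and control plasma groups each held 4 pools, and each pool combined the RNA of 3 rats. All 24 rats were male Sprague-Dawley animals of 250 to 300 g deprived of drinking water over 3 days and injected in the muscle with the diuretic furosemide (10 mg/kg), so dehydration and diuretic are shared by the controls. CI-AKI rats then received Omnipaque at 350 mg iodine per ml and 10 ml/kg through the tail vein, control rats received the same volume of saline, and samples were taken 8 h later. The 24 rats supplied both tissues, but how plasma pools match kidney pools animal by animal was not settled here.

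A miRNA guides a silencing complex to messenger RNAs, mainly through pairing of its seed, bases 2 to 8, and lowers the output of those it finds. miR-124 is the classic miRNA of differentiated neurons, miR-9 and its partner strand miR-9* act in neural progenitors and neurons, and miR-128 is abundant in brain and restrains neuronal excitability in mice. miR-7 is found in neurons and in neuroendocrine and pancreatic endocrine cells, where it limits insulin secretion in mice.

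The mature sequences of 5 of the 6 miRNAs are shown, from RefSeq on the rat GRCr8 assembly, because their seeds show which members can address the same targets. Each is written 5′ to 3′, with the seed in capitals.
rno-miR-7a: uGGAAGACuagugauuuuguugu
rno-miR-7b: uGGAAGACuugugauuuuguugu
rno-miR-9: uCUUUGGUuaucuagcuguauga
rno-miR-9*: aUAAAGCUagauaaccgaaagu
rno-miR-128: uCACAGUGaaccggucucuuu
miR-7a and miR-7b share 1 seed and were identical at 22 of 23 bases, with the substitution A10U counted from the 5′ end of miR-7a. miR-9, miR-9* and miR-128 each have a seed of their own.

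Several of these miRNAs come from more than 1 place in the genome, so an array signal cannot be assigned to 1 gene. miR-7a is encoded at chr17:6278710-6278732, inside the span of Hnrnpk, which encodes an RNA-binding protein, and at chr1:142215818-142215840, inside a long noncoding RNA gene. miR-7b lies at chr9:1167464-1167486. miR-9 has 3 copies, at chr1:142849415-142849437 and chr2:15933307-15933329 inside the host genes Mir9-3hg and Mir9-2hg, and at chr2:175974986-175975008 inside a long noncoding RNA gene, and miR-9* is the opposite arm of the same 3 hairpins. miR-128 is encoded at chr13:42251933-42251953 inside R3hdm1 and on the minus strand at chr8:120963807-120963827 inside the span of Arpp21. These are gene spans, and whether each miRNA sits in an exon or an intron was not determined here.

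The arrays differed in how much they could register. Detection calls were made for 174 to 216 miRNAs on CI-AKI kidney arrays and 169 to 195 on control kidney arrays, against 95 to 211 on CI-AKI plasma and 84 to 208 on control plasma arrays. The lowest plasma values, 95 and 84, both belonged to pool 4, and the other 6 plasma arrays had 156 to 211, so differences that involve plasma are given with and without pool 4 of both plasma groups. The kidney label was checked against 9 kidney epithelial miRNAs, of which 8 matched an array name (miR-10a, on the array as miR-10a-5p, did not). All 8 were detected on all kidney arrays. Detection alone does not mark kidney, as 3 of them, among them miR-192, were also detected on all 8 plasma arrays. By level, 7 of the 8 passed as higher in kidney than plasma in each treatment (28.7% of all tested in CI-AKI and 33.1% in control pools), and miR-204 did not. Among those that passed, miR-194, miR-200a, miR-200b and miR-200c lacked calls in each plasma group. They entered the test through kidney alone, so their passing is weak support for the label. The liver miRNA miR-122 was detected on all 8 plasma arrays and no kidney array. All kidney arrays lay on 1 slide and all plasma arrays on another, so tissue and slide cannot be told apart, and on both slides treatment followed the column, so treatment and column cannot be told apart either. A letter code in the labels, whose meaning is not stated, pairs each kidney array with a plasma array, and 6 of its 8 letters join arrays of opposite treatments; groups here follow the titles and treatment labels. No spot was saturated. In these tissue extracts, fewer cells of a type and less RNA per cell cannot be told apart.

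Of the 6 miRNAs, 4 were present in kidney by the scanner's detection call, and 2 were not. miR-9, miR-9*, miR-7a and miR-128 were detected on all 4 CI-AKI and all 4 control kidney arrays, where 163 of all 350 miRNAs were. miR-7b and miR-124 were detected on none of the 16 arrays. In plasma, miR-128 was detected on 4 of 4 CI-AKI and 3 of 4 control arrays, and miR-7a on 3 of 4 in each group, with pool 4 the array without a call in every such case. miR-9 and miR-9* were detected on none of the 8 plasma arrays.

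The spots behind these calls, 20 per miRNA and array, showed the same division. For miR-9, 72 of 80 spots on CI-AKI kidney arrays and 71 of 80 on control kidney arrays were well above background, against 4 of 80 on CI-AKI plasma and 3 of 80 on control plasma arrays. miR-9* had 61 of 80 such spots in CI-AKI kidney and 42 of 80 in control kidney, and 2 of 80 in each plasma group. For miR-128 the counts were 72 of 80 in CI-AKI kidney and 76 of 80 in control kidney, and 70 of 80 in CI-AKI plasma and 62 of 80 in control plasma. miR-7a had 65 of 80 in CI-AKI kidney and 48 of 80 in control kidney, and 32 of 80 in CI-AKI plasma and 46 of 80 in control plasma. For miR-7b, which is read by 4 probes, no group exceeded 4 of 80 spots, and for miR-124 none exceeded 7 of 80.

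**Figure D1:**
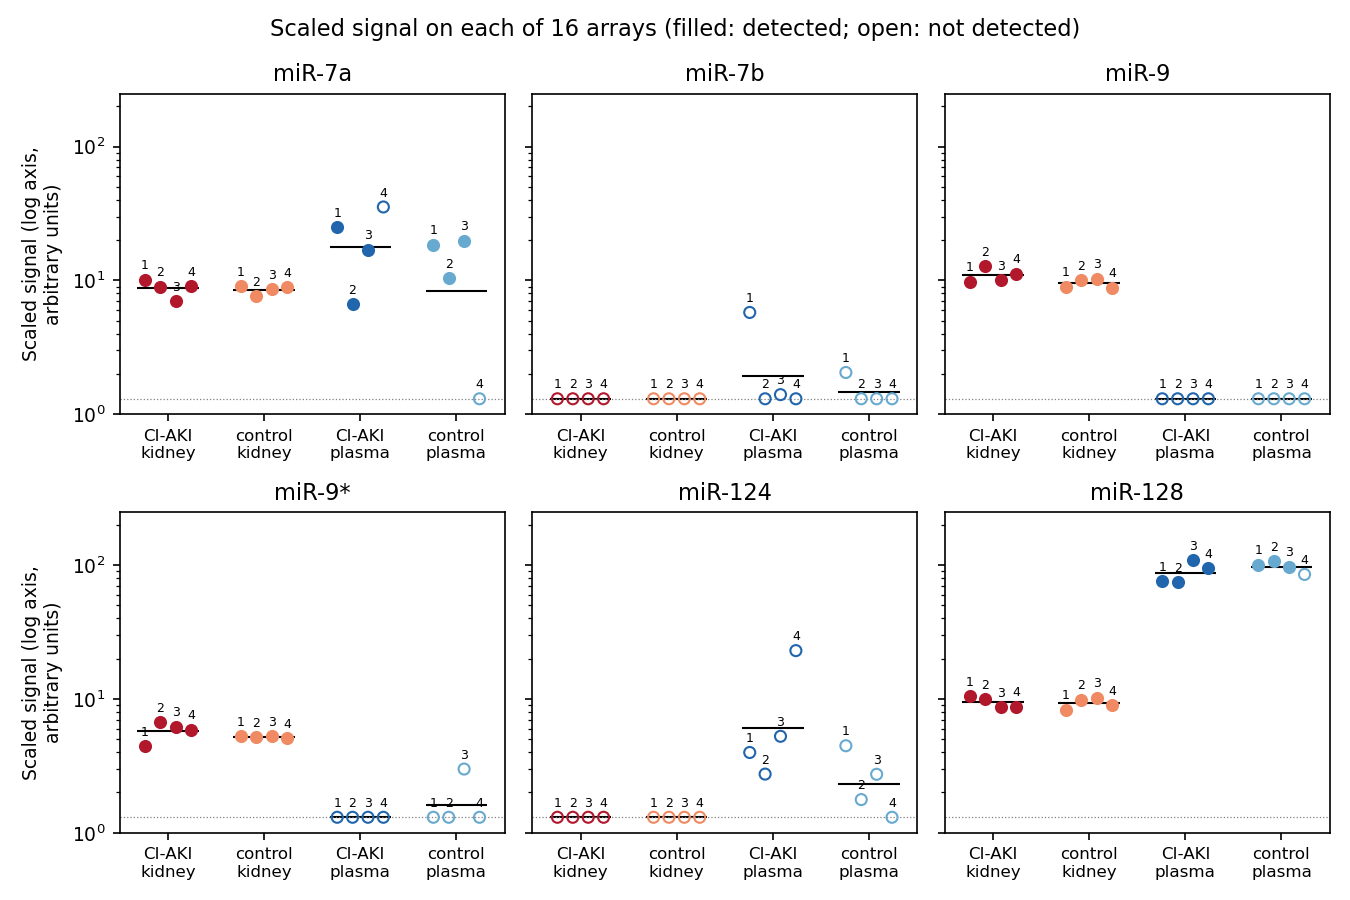
Scaled signal of each miRNA on 16 arrays (log axis, arbitrary units, all arrays on 1 scale), with CI-AKI left of control and kidney left of plasma; points are pools with their numbers, filled where detected and open where not, black lines are geometric means, and the dotted line is the floor to which lower values were set. miR-9 and miR-9* were detected on kidney arrays only, miR-128 points are higher in plasma, and miR-7b and miR-124 have no filled point; heights are not comparable between panels.

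The first comparison asked whether contrast medium changed these miRNAs in kidney at 8 h. Signals were processed intensities divided, per array, by the 75th percentile of the miRNAs called on every kidney array, and log2 values were tested with limma, in which a miRNA was tested if detected on all 4 arrays of at least 1 group. All 4 detected members were tested and 0 passed an adjusted p of 0.05, with 0 at an unadjusted p under 0.05 as well. Over all 176 tested miRNAs 3 passed, all higher in CI-AKI (1.7%), and the median log2 difference was 0.028.

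miR-9 had scaled signals of 20.7, 26.6, 19.8 and 24.1 in CI-AKI kidney pools 1 to 4, against 19.1, 20.8, 21.9 and 17.5 in control kidney pools. Pools 2 and 4 of CI-AKI lay above all controls and the other two lay within their range, so the groups overlapped. The mean was 22.8 ± 3.1 in CI-AKI and 19.8 ± 1.9 in control kidneys (SD, n = 4 each). The log2 difference was 0.20 (SE 0.11, 95% interval −0.055 to 0.45), with a limma adjusted p of 0.917, and it was 0.23 within the upper row of the slide and 0.16 within the lower row. Its 2 probes gave 0.18 and 0.23.

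The partner strand miR-9* gave 9.41, 13.8, 12.3 and 12.7 in CI-AKI kidney pools, against 11.3, 10.72, 11.2 and 10.1 in control kidney pools. CI-AKI pools 2, 3 and 4 were above every control and pool 1 was below every control. The means were 12.1 ± 1.9 in CI-AKI and 10.8 ± 0.53 in control kidneys, and the log2 difference was 0.15 (SE 0.11, 95% interval −0.11 to 0.40, limma adjusted p = 0.917), against −0.040 in the authors' deposited table. Over the 8 kidney arrays the 2 strands of this hairpin followed each other at a root-mean-square log2 distance of 0.13, which ranked 12 of 162 among the miRNAs nearest to miR-9.

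For miR-7a, which binds messages through the shared miR-7 seed, CI-AKI kidney pools gave 21.4, 18.6, 13.8 and 19.6, against 19.2, 15.8, 18.2 and 17.6 in control kidney pools. CI-AKI pool 3 was the lowest of all 8 and pool 1 the highest. The means were 18.3 ± 3.2 in CI-AKI and 17.7 ± 1.4 in control kidneys, with a log2 difference of 0.037 (SE 0.13, 95% interval −0.26 to 0.33, limma adjusted p = 0.957). Its 2 probes gave 0.21 and −0.0098, and the difference took the opposite sign under quantile normalization, without scaling, with the brightest probe and in the authors' deposited table.

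miR-128, transcribed with R3hdm1 and Arpp21, gave 22.3, 20.5, 17.1 and 18.8 in CI-AKI kidney pools, against 17.6, 20.5, 21.7 and 17.8 in control kidney pools. The lowest and the highest pools were both CI-AKI, and the groups overlapped throughout. The means were 19.7 ± 2.2 in CI-AKI and 19.4 ± 2.0 in control kidneys, and the log2 difference was 0.018 (SE 0.10, 95% interval −0.22 to 0.25, limma adjusted p = 0.957). It took the opposite sign under the same 4 settings as miR-7a. The intervals of the 4 members leave room for changes of up to 0.25 to 0.45 on the log2 scale upward, and a p above the threshold does not show that the groups were alike.

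In plasma the same comparison covered 1 member, since miR-128 alone met the rule for testing. miR-128 gave 36.9, 33.3, 53.0 and 45.9 in CI-AKI plasma pools 1 to 4, against 48.7, 52.2, 49.1 and 41.4 in control plasma pools, on a scale set within plasma. CI-AKI pools 1 and 2 were below every control and pool 3 was above, so the groups overlapped. The means were 42.3 ± 8.9 in CI-AKI and 47.8 ± 4.6 in control plasma, and the log2 difference was −0.20 (SE 0.24, 95% interval −0.74 to 0.35, limma adjusted p = 0.941); it was −0.059 without pool 4 of both groups, with the other 6 arrays scaled anew, and above 0 under normexp background correction, median scaling, the total signal and the authors' deposited table. With limma, 0 of 96 plasma miRNAs passed (0%), 5 had an unadjusted p under 0.05, and the median log2 difference was −0.086.

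miR-7a was measured on pools 1 to 3 of each plasma group and gave 12.2, 2.98 and 8.24 in CI-AKI and 8.95, 5.07 and 9.95 in control plasma. These ranges overlapped. With pool 4 left out and the remaining 6 arrays scaled anew, the values were 27.2, 6.62 and 16.3 in CI-AKI, against 18.6, 8.77 and 15.9 in control plasma, and the log2 difference was 0.056 (SE 0.49, limma adjusted p = 0.950); on the first scale the mean of pools 1 to 3 was lower in CI-AKI, so its sign depends on the scaling. The difference of miR-128 between CI-AKI and control was 0.17 larger in kidney than in plasma on the log2 scale (SE 0.22, 95% interval −0.29 to 0.63, limma adjusted p = 0.929), and 0.10 larger without pool 4 of both plasma groups (SE 0.24, limma adjusted p = 0.905). Of 87 miRNAs in that interaction test 1 passed (1.15%).

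**Figure D2:**
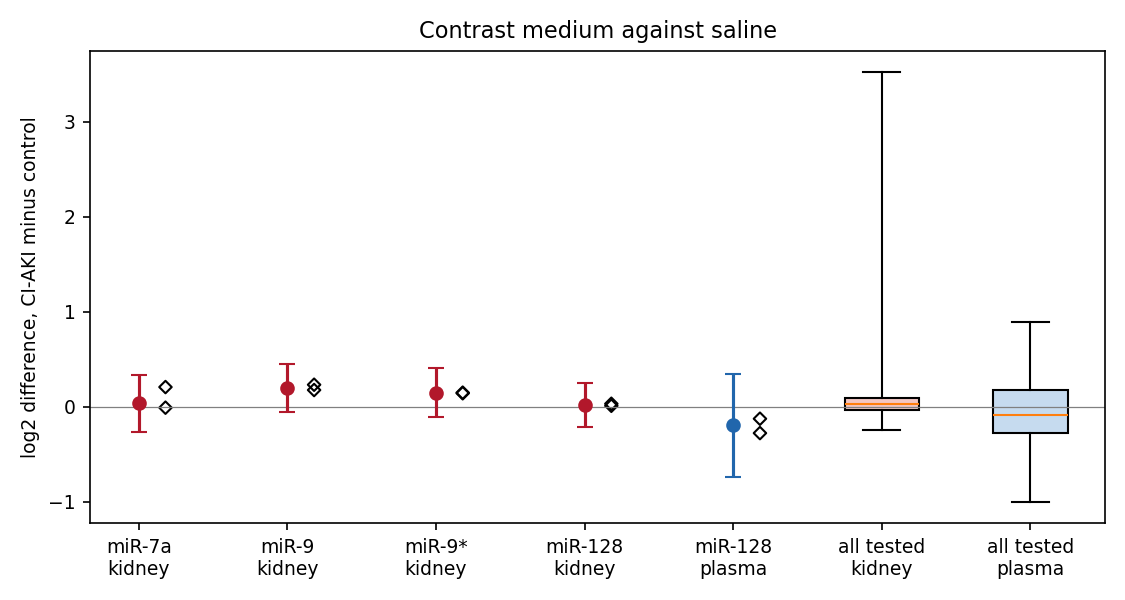
log2 difference, CI-AKI minus control, for the 4 members tested in kidney and for miR-128 in plasma (circles, with 95% intervals from limma; diamonds are single probes), beside boxes of all 176 kidney and 96 plasma miRNAs tested (box, middle 50%; whiskers, lowest and highest value). All 5 intervals cross 0.

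The second comparison set kidney against plasma, in CI-AKI pools and in control pools. Here 3 of the 4 members tested passed in each treatment. miR-9 and miR-9* were fitted as higher in kidney, with the sign reversed under normexp background correction. They met the rule for testing through kidney alone, since neither was detected on any plasma array. miR-128 was lower in kidney, and miR-7a passed in neither treatment. These counts belong to a background in which most miRNAs differed, 72.9% of 181 in CI-AKI pools (28.7% higher, 44.2% lower in kidney) and 77% of 178 in control pools (33.1% higher, 43.8% lower), so passing sets the members apart from few others. Both comparisons come from separate groups of pools but share the 2 slides.

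miR-9 had scaled signals of 9.43, 13.1, 9.38 and 11.2 in CI-AKI kidney pools, against −2.39, −0.63, −1.47 and −3.73 in CI-AKI plasma pools, where background subtraction left nothing above 0. In control pools it had 9.46, 10.5, 10.68 and 9.18 in kidney, against 0.23, −0.59, −0.26 and −10.1 in plasma. No plasma array overlapped a kidney array when the probes were averaged. Taken singly, both probes separated the tissues in CI-AKI pools (3.53 and 2.96), but in control pools 1 did (3.20) and the other overlapped (1.51). The fitted log2 difference was 3.46 (SE 0.20, limma adjusted p = 2.72e-07) in CI-AKI pools and 2.80 (SE 0.10, limma adjusted p = 9.18e-08) in control pools. Every plasma value in these fits was the floor, and miR-9 was tested through its detection in kidney alone. Direction and small p thus rest in large part on filter and floor, so a bound is given below.

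The bound took, on each plasma array, the lowest signal among detected miRNAs or the miRNA's own signal, whichever was higher. It is approximate, since a signal above the lowest detected one can still lack a call. On control plasma pool 4, miR-128 had 88.4 without a call, where the lowest detected signal was 44.7. By it, miR-9 was at least 3.63-fold higher in kidney than plasma in CI-AKI pools and at least 2.37-fold higher in control pools. On plasma pool 4 the lowest detected scaled signal was 38.2 in CI-AKI and 44.7 in control, above miR-9's signal on every kidney array, so these arrays could not have registered miR-9 at its kidney level. Without plasma pool 4 the bounds were at least 8.54-fold in CI-AKI pools and at least 5.22-fold in control pools, with fitted differences of 4.14 and 3.14. With each plasma array's own lowest detected signal as the floor, limma's adjusted p was 0.268 in CI-AKI and 0.295 in control pools, the total signal gave 0.122 in control pools, and normexp background correction, with an offset of 50, turned the sign to −1.82 and −1.17; the unscaled miR-9 signal was 11.9 to 30.8 on the kidney arrays, below that offset.

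For miR-9* the kidney signals were 4.29, 6.82, 5.82 and 5.91 in CI-AKI pools, against −2.86, −0.55, −0.21 and −9.79 in CI-AKI plasma pools. In control pools they were 5.56, 5.41, 5.44 and 5.29 in kidney, against 0.36, 0.00994, 3.12 and −32.0 in plasma. Here too the tissues did not overlap, with the closest plasma value in control pool 3. By the same approximate bound, miR-9* was at least 1.92-fold higher in kidney in CI-AKI pools and at least 1.10-fold in control pools. Without plasma pool 4 the bounds were 4.50-fold and 2.29-fold. The fitted log2 differences were 2.54 (SE 0.21, limma adjusted p = 2.70e-06) and 1.65 (SE 0.27, limma adjusted p = 0.000563), and they too reversed under normexp correction. These fits rest on the same filter and floor, with only control plasma pool 3 (3.12) above the floor. The call was lost with each array's own floor (limma adjusted p = 0.573 in CI-AKI and 0.910 in control pools) and with the total signal (0.309 and 0.427).

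miR-128 ran the other way. In CI-AKI pools it had 10.2, 10.1, 8.10 and 8.77 in kidney, against 68.2, 68.4, 106 and 95.2 in plasma. In control pools it had 8.71, 10.4, 10.6 and 9.35 in kidney, against 104, 112, 102 and 88.4 in plasma, the last without a detection call. The tissues did not overlap on any array, nor for either of the 2 probes. The log2 difference was −3.16 (SE 0.23, limma adjusted p = 1.04e-06), or 8.95-fold lower in kidney, in CI-AKI pools, and −3.38 (SE 0.12, limma adjusted p = 9.18e-08), or 10.4-fold lower in kidney, in control pools. Without plasma pool 4 it was −2.97 and −2.87. Unscaled, it was −1.04 and −1.35 with limma adjusted p of 0.345 and 0.365, so the size depends on bringing the arrays to 1 scale.

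Most blood-cell miRNAs were, like miR-128, lower in kidney than plasma. So were 44.2% of all tested miRNAs in CI-AKI pools and 43.8% in control pools, among them the liver miRNA miR-122 (−11.2 and −11.3). Detected on no kidney array, miR-122 was tested through plasma alone, and the size of its difference rests on the floor in kidney. The 2 red-cell miRNAs on the array, miR-451 and miR-144, summed to 183 to 200 in CI-AKI and 105.4 to 227 in control kidneys, against 3535 to 13263 in CI-AKI and 5425 to 8938 in control plasma, on the scale of all 16 arrays. All 4 leukocyte and platelet miRNAs, among them miR-223, passed as lower in kidney in control pools and 3 of 4 in CI-AKI pools; miR-142-3p, which did not pass in CI-AKI pools, took the opposite sign without scaling in both, under median scaling in CI-AKI pools and under quantile normalization in control pools. The others in both lists stayed below 0 under 5 scalings and normexp. Without scaling, miR-144 lost its call in CI-AKI and control pools (limma adjusted p = 0.060 and 0.217), and miR-142-5p in control pools (0.122). The control-pool call of miR-142-3p was lost under every other scaling and normexp (limma adjusted p from 0.068 to 0.976). Without plasma pool 4 the red-cell sums were 3535 to 8962 in CI-AKI and 5425 to 8938 in control plasma, the other miRNAs of both lists still passed as lower in kidney, and miR-142-3p passed in neither treatment (−0.35 and 0.026). Their part in the miR-128 difference was not tested.

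For miR-7a the tissues overlapped. In CI-AKI pools it had 9.75, 9.19, 6.53 and 9.12 in kidney, against 22.5, 6.12, 16.4 and 35.5 in plasma, the last undetected. In control pools it had 9.50, 7.98, 8.86 and 9.23 in kidney, against 19.1, 10.8, 20.6 and −3.30 in plasma, the last undetected. In CI-AKI pools the plasma values lay on both sides of the kidney values; in control pools the 3 detected plasma values lay above every kidney value and the undetected one below. The log2 difference was −0.98 (SE 0.48, 95% interval −2.05 to 0.094, limma adjusted p = 0.0864) in CI-AKI pools and 0.0075 (SE 0.80, 95% interval −1.84 to 1.86, limma adjusted p = 0.993) in control pools. CI-AKI plasma pool 2 decided that call: without it the difference was −1.46 with an adjusted p of 0.00198. Without plasma pool 4 the difference was −0.49 in CI-AKI pools and −0.30 in control pools (limma adjusted p = 0.345 and 0.263). In control pools miR-7a passed as lower in kidney with the total signal (−1.12, adjusted p = 0.00599) and with each array's own floor (−1.24, adjusted p = 0.0198).

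Scaling did not move all miRNAs alike in these comparisons. Without it, miR-9, at the floor in plasma, went from 3.46 to 3.88 in CI-AKI pools and from 2.80 to 3.28 in control pools. The median of all tested miRNAs moved further. The median log2 difference over all tested miRNAs was −0.53 in CI-AKI pools and −0.39 in control pools, and it lay at 1.497 and 1.35 without scaling. Relative to that median, over 5 scalings, miR-9 stood at 2.39 to 3.99 in CI-AKI pools and 1.92 to 3.20 in control pools, and miR-128 at −2.72 to −2.53 and −2.99 to −2.70. miR-9* stood at 1.46 to 3.07 and 0.76 to 2.04, and miR-7a at −0.44 to −0.25 and −0.57 to 0.41.

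**Figure D3:**
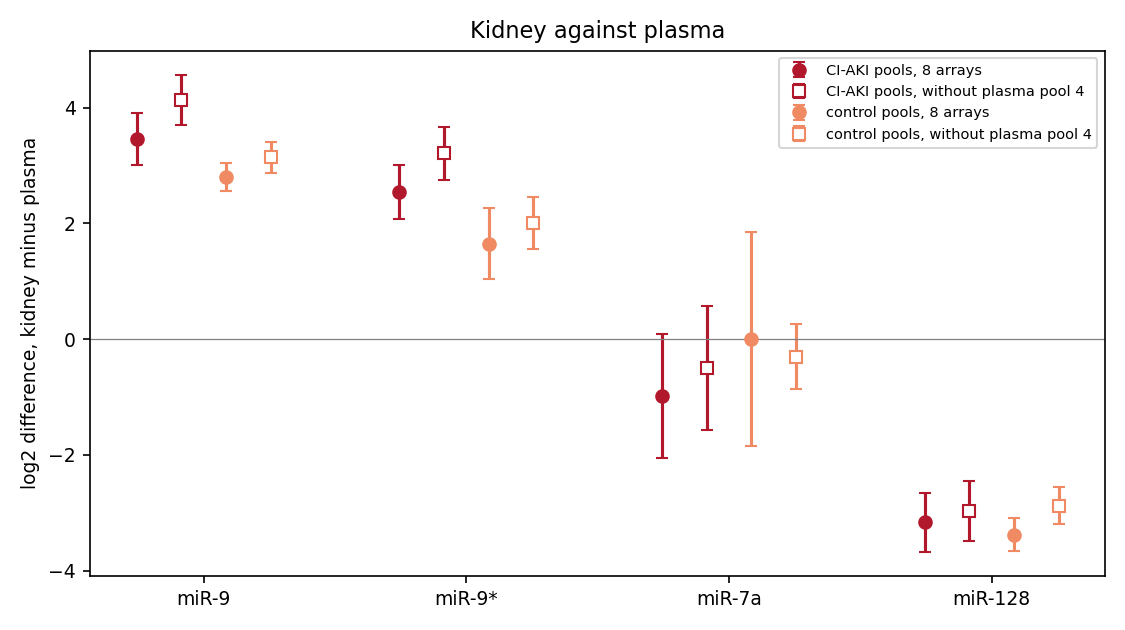
log2 difference, kidney minus plasma, with 95% intervals from limma; circles are all 8 arrays of a treatment, open squares leave out plasma pool 4, red is CI-AKI and orange is control. miR-9 and miR-9* lie above 0 and miR-128 below 0 in both treatments, and miR-7a intervals cross 0; the miR-9 and miR-9* values rest on plasma signals at the floor and reversed under normexp correction.

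The other members, miR-124 and miR-7b, had no detection call in either tissue. miR-124 signals on kidney arrays lay between 0.033 and 1.83 in CI-AKI and −0.13 and 0.25 in control, and miR-7b signals between −1.86 and 0.97 in CI-AKI and −1.45 and 0.020 in control, against a floor of 1.79. In plasma, on its own scale, miR-124 had 1.93, 1.23, 2.55 and 11.1 in CI-AKI pools, against 2.16, 0.86, 1.37 and −0.12 in control pools. These lay above the lowest detected signal of their own array in CI-AKI pools 2 and 3 and control pools 1, 2 and 3, although no call was made. miR-7b lay between −1.72 and 2.80 in CI-AKI plasma and between −3.78 and 0.99 in control plasma. On the scale of CI-AKI pools, miR-124 had 0.015 to 0.87 in kidney, against 2.51 to 23.0 in plasma. The 23.0 was pool 4, and the highest of the other plasma pools was 5.08. On the scale of control pools it had −0.067 to 0.12 in kidney, against −0.25 to 4.62 in plasma. The ranges thus overlapped in control pools and not in CI-AKI pools. Without a call in either tissue, miR-124 was not tested. miR-7a, with the same seed as miR-7b, was detected on every kidney array. No level is compared between miRNAs here, since each is read by its own probes.

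Other miRNAs of the same hairpins and of brain place these values. miR-7a*, the opposite arm of a miR-7a hairpin, was detected on all 8 kidney arrays and 5 plasma arrays, and had 5.06 ± 0.40 in CI-AKI and 4.19 ± 0.62 in control kidneys (SD, n = 4 each), with a log2 difference of 0.28 (SE 0.11, limma adjusted p = 0.600). Unlike miR-7a, it passed as lower in kidney than plasma, by −1.58 in CI-AKI pools and −2.76 in control pools; under quantile normalization and without scaling it took the opposite sign in CI-AKI pools (0.22 and 0.39). The call in CI-AKI pools was also lost under median scaling, the 75th percentile of all miRNAs and normexp (adjusted p = 0.092, 0.065 and 0.072), and that in control pools without scaling and under normexp (0.315 and 0.086). Without plasma pool 4 both calls stood (−1.22 and −2.05). Whether it differed from miR-7a was not tested. miR-124* was detected on no kidney array and 1 plasma array. miR-375, which shares endocrine cells with miR-7, had 15.4 ± 3.8 in CI-AKI and 15.8 ± 4.5 in control kidneys and passed as lower in kidney than plasma, by −1.69 in CI-AKI pools and −1.71 in control pools, with the opposite sign without scaling (0.44 and 0.088) and no call under quantile normalization (−0.31 and −0.34) or normexp (adjusted p = 0.057 and 0.055). Without plasma pool 4 it was −1.58 and −1.17, both past the threshold.

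Of 20 other brain-enriched miRNAs, 2 were detected on all 8 kidney arrays, miR-218 and miR-338, and 13 on none. On plasma arrays none was detected on all 8 and 12 were detected on none. Of all 350 miRNAs, 163 were detected on all 8 kidney arrays and 224 on at least 1 of them. In plasma, 74 of the 350 were detected on all 8 arrays and 233 on at least 1. Whether the list differed from these counts was not tested. miR-218, which also occurs in motor neurons, had 158 ± 19 in CI-AKI and 155 ± 7.5 in control kidneys, and miR-338, known from oligodendrocytes, had 20.6 ± 0.96 and 22.9 ± 2.2. For CI-AKI minus control they gave log2 differences of 0.017 and −0.14 (limma adjusted p of 0.957 and 0.917), and 0 of 3 list members tested in kidney passed, against 1.7% of all 176 tested. Between tissues, miR-218 passed as higher in kidney in both treatments, as 1 of 3 list members tested in CI-AKI pools and 1 of 2 in control pools, although normexp gave log2 differences of −0.63 and 0.19, with no call. Over all tested miRNAs, 28.7% in CI-AKI pools and 33.1% in control pools passed as higher in kidney. The fits gave miR-218 log2 differences of 5.58 in CI-AKI and 4.81 in control pools (limma adjusted p = 8.72e-07 and 7.45e-06). It was detected on no plasma array, so it too was tested through kidney alone. Its approximate bound, which carries no test, was at least 11.5-fold higher in kidney in CI-AKI pools and 11.8-fold in control pools. Without plasma pool 4 the bounds were 20.8-fold and 22.4-fold.

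**Figure D4:**
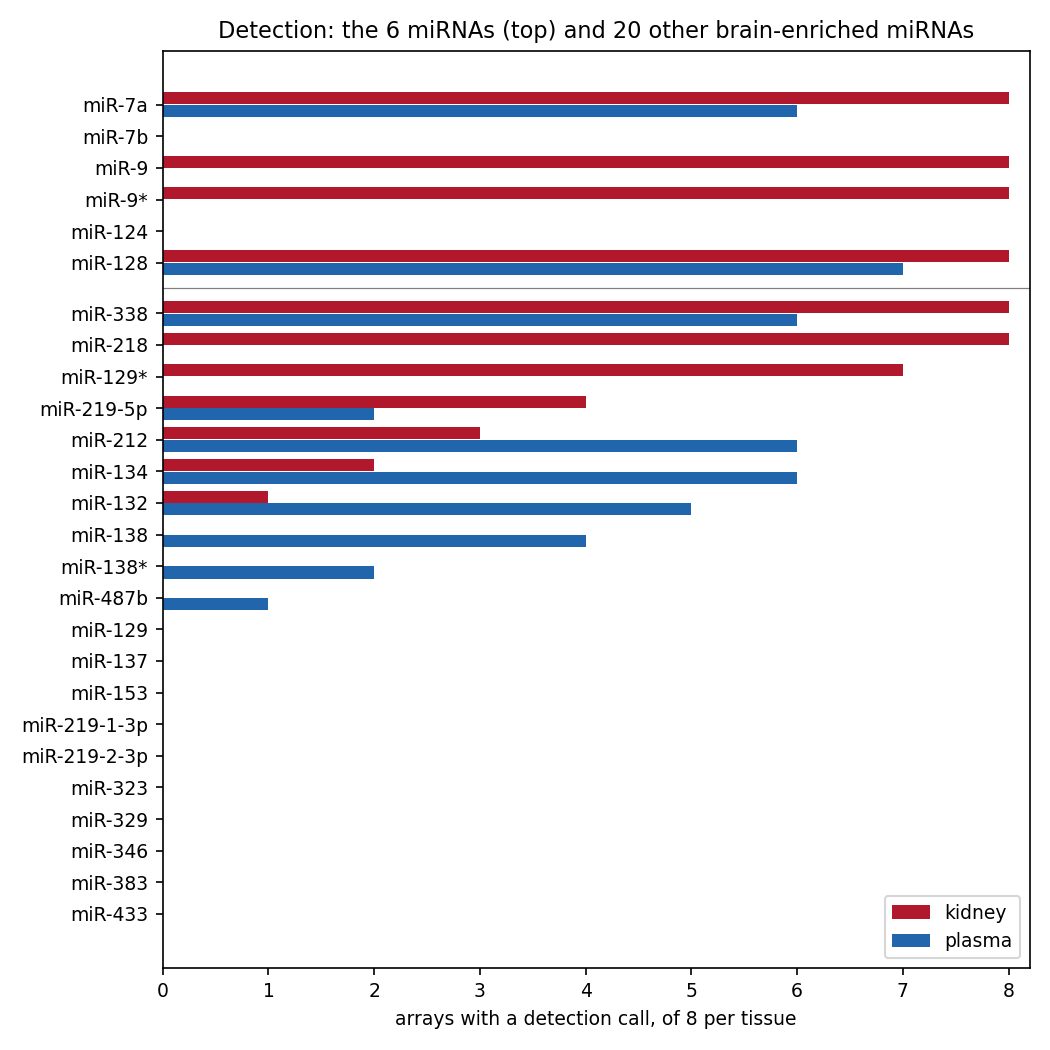
Number of arrays with a detection call, of 8 per tissue (kidney bar above plasma bar), for the 6 miRNAs at the top and the 20 other brain-enriched miRNAs below. miR-9, miR-9*, miR-7a, miR-128, miR-338 and miR-218 reach all 8 kidney arrays, and 13 of the 20 have no kidney bar.

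Across the 8 kidney arrays the 4 detected members varied somewhat more than most, with an SD of log2 values of 0.20 for miR-7a, 0.19 for miR-9, 0.18 for miR-9* and 0.15 for miR-128, against a median of 0.12 over 163 miRNAs detected on all of them. By the smallest root-mean-square distance of centred log2 values, compared with 159 other miRNAs, miR-128 was nearest to miR-148b-3p (0.047), miR-17-5p (0.079) and miR-93 (0.082), where the median distance was 0.15. miR-9 was nearest to miR-23a (0.10), miR-199a-5p (0.10) and miR-10a-5p (0.11), miR-9* to miR-200c (0.072), miR-214 (0.094) and miR-195 (0.11), and miR-7a to miR-22* (0.091), miR-352 (0.096) and miR-98 (0.096). These distances describe 8 arrays that share a slide and carry no test.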

How the data were processed

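Per the file headers, the authors extracted each spot's intensity with Agilent Feature Extraction 10.7.3.1, whose output holds background-subtracted signals and a detection call for every miRNA. A second deposited file holds log2 values, normalized across arrays by the authors; how is not given in the sources used here, and it was tried as an alternative. Per the labels' protocols, an Agilent kit labelled the RNA, although biotin is named as label.

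Within a probe, processed signals were averaged leaving out outlier-flagged spots, and probes were averaged within a miRNA. To scale an array, the 75th percentile of the miRNAs called on every array compared was divided out and the geometric mean of these percentiles multiplied back. Values below a floor were set to it (1.79 in kidney, 0.976 in plasma, 0.971 and 1.42 between tissues in CI-AKI and control pools) and taken to log2. Floors were the median of the arrays' lowest detected signals. A floor can understate changes of dim miRNAs. It can also overstate them where an array's own lowest detected signal lies above it, as on plasma pool 4 (38.2 in CI-AKI and 44.7 in control pools). Tests were two-sided with limma 3.58.1 in R 4.3.3 (lmFit and eBayes) and Benjamini-Hochberg adjustment over all tested miRNAs; the scripts were tested on simulated data. Figures used matplotlib 3.10.9. Normexp used the median signal and its background with an offset of 50. The fits reported have no replicate block. Same-numbered plasma pools deviated together (correlations 0.22 to 0.62), so a fit with pool number as a block was run as an alternative; kidney pools (−0.100 to 0.59) and the tissue comparisons did not pair by this rule. The number of arrays limits the precision. P-values measure the spread between pools of 3 rats. Plasma values set to the floor add no spread, as for miR-9 in both tissue comparisons and miR-9* in CI-AKI pools. The members and lists were chosen with earlier results of these data known. Named are the 6 miRNAs, their other strands, up to 5 of the brain-enriched list by kidney signal, miR-375, 3 nearest miRNAs per detected member, and marker miRNAs.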

Additional observations from a re-analysis of the deposited data

Results flagged for a closer look

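Of 24 groups of 4 arrays checked for a scaled signal far from the rest of its group, before any floor was applied, 3 held one by Dixon's test at the 95% level, which flags about 1 in 20 groups by chance. All 3 lay on plasma pool 4 and had no detection call. miR-124 had a scaled signal of 11.1 in CI-AKI plasma pool 4, above the other 3 pools. In control plasma pool 4, miR-9 had −4.73 and miR-9* had −15, both below the other 3 pools. No detected value of a member stood apart in this way.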

How the results depend on the processing

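No member passed in the comparisons of CI-AKI with control, or in the interaction, under any alternative. In kidney the number of miRNAs called, 3, became 0 under normexp correction and with detection required on every array (limma, with 2 and 8 at an unadjusted p under 0.05), and 1 under quantile normalization, without scaling and in 1 fit of all 4 groups; leaving out 1 pool gave 2 to 3. The kidney difference of miR-9 kept its sign throughout (0.12 to 0.24 leaving out 1 pool; 0.075 to 0.26 for miR-9*). miR-7a reversed to −0.13 (quantile), −0.0054 (no scaling), −0.063 (brightest probe) and −0.086 (the authors' deposited table), miR-128 to −0.11, −0.024, −0.044 and −0.078 in the same order, and miR-9* to −0.040 in that table; leaving out 1 pool gave −0.043 to 0.15 for miR-7a and −0.043 to 0.068 for miR-128. Plasma miR-128 reversed to 0.54 (normexp), 0.019 (median scaling), 0.23 (total signal) and 0.13 (the authors' deposited table), and lay between −0.31 and −0.090 leaving out 1 pool.

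Between tissues, the calls in CI-AKI pools, 132, became 64 (normexp), 83 (no scaling) and 67 (detected on every array; fewer miRNAs tested), with 125 to 154 leaving out 1 pool; in control pools, 137 became 73, 57 and 56, with 130 to 183. Members called, 3 in each, fell to 1 under normexp in both. With detection required on every array, miR-128 alone could be tested in CI-AKI pools, where it passed, and no member in control pools. With each array's own floor, CI-AKI pools had 1 and control pools 2, miR-128 and a gained call of miR-7a. Under that floor miR-9 and miR-9* were lost in both treatments. Leaving out 1 pool gave 3 to 4 and 3 to 3. In CI-AKI pools normexp gave −1.82 for miR-9 and −1.84 for miR-9*, and miR-7a reversed to 0.26 (quantile), 1.15 (no scaling) and 0.44 (the authors' deposited table), with −1.46 to −0.49 leaving out 1 pool. In control pools normexp gave −1.17 for miR-9, −1.27 for miR-9* and −1.47 for miR-7a, and miR-7a reversed to −1.12 (total signal), −0.34 (brightest probe), −1.24 (own floor) and −0.30 (without plasma pool 4), with −0.30 to 0.49 leaving out 1 pool. Leaving out 1 pool, miR-9 kept 2.90 to 4.24 in CI-AKI and 2.59 to 3.14 in control pools, miR-9* 1.98 to 3.24 and 1.49 to 2.15, and miR-128 −3.25 to −2.97 and −3.41 to −2.87. In the interaction the 1 call became 0 under normexp, no scaling and detection on every array (0, 0 and 2 at an unadjusted p under 0.05) and 2 without plasma pool 4, with 1 to 4 leaving out 1 pool; miR-128 reversed to −0.46 (normexp), −0.025 (quantile), −0.26 (total signal), −0.0071 (brightest probe) and −0.21 (the authors' deposited table), with 0.053 to 0.27 leaving out 1 pool. Apart from the smaller number tested, the cause was not tested. With pool number as a replicate block, plasma miR-128 kept −0.20 (limma adjusted p = 0.779), kidney calls stayed at 3, and no call of a member changed. On plasma pool 4, signal over background limits what a missing call can show.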
